A study of Mus musculus with 104 samples.

Results

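The endocannabinoid system is described here through 6 genes: Cnr1, Napepld, Dagla, Daglb, Faah and Mgll. Each listed gene was represented by 1 probe set, the one with the highest mean over all arrays among those annotated to that symbol alone, and all 6 were measured among 18193 genes so represented. The probe sets were 1434172_at for Cnr1, 1437872_at for Napepld, 1455448_at for Dagla, 1451970_at for Daglb, 1421969_a_at for Faah and 1426785_s_at for Mgll. Tissue came from male Balb/c mice aged 7 to 8 weeks, whose brains were cut into 0.5 mm slices and punched under a stereomicroscope. Each of 52 regions, 49 of brain and spinal cord plus retina, pituitary and pineal gland, was sampled as 2 arrays, and the study's design text calls the 2 samplings independent. RNA from 6 time points, 4 h apart over a day, was pooled before hybridisation, so no value below has a time of day. Sampling was under a light and dark cycle or constant darkness, and the labels do not say which samples had which. Lighting could therefore differ between regions compared below. The number of mice per pool is not given in the sources used here. Values are log2 signals after robust multi-array averaging (RMA), on which a difference of 1 is a 2-fold change and the median of all values was 7.39. They ran between 3.88 and 15.15 over the whole table.

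Endocannabinoids are lipid messengers that a neuron makes on demand and that usually act backwards across the synapse. CB1, the receptor encoded by Cnr1, sits mainly on axon terminals, where it lowers transmitter release, so a terminal's receptor is encoded by mRNA in a cell body that can lie in another region. Napepld encodes an enzyme that releases N-acylethanolamines, anandamide among them, from membrane phospholipids. The diacylglycerol lipases encoded by Dagla and Daglb make 2-arachidonoylglycerol, and Faah and Mgll encode the enzymes that break down anandamide and 2-arachidonoylglycerol.

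In GRCm38.p6, the assembly of the RefSeq gene table, Cnr1 and Faah lie on chromosome 4, Napepld and Daglb on chromosome 5, Mgll on chromosome 6 and Dagla on chromosome 19. Cnr1 and Napepld, the pair of members with the lowest correlation across brain regions, are shown by their promoters. These are RefSeq windows of 300 bases, 250 before and 50 after an annotated start, at chr4:33924014-33924313 on the plus strand for Cnr1, the most upstream of its 3 annotated windows, and at chr5:21701573-21701872 on the minus strand for Napepld. Capitals mark GGGCGG or its reverse complement CCGCCC, the core of the GC box bound by SP1-type factors.
Cnr1: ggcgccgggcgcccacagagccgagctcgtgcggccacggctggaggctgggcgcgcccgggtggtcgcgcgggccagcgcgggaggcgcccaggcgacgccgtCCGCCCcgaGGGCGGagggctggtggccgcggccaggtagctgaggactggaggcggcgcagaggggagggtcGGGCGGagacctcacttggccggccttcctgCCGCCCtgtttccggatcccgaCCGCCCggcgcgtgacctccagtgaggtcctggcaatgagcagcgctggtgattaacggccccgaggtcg
Napepld: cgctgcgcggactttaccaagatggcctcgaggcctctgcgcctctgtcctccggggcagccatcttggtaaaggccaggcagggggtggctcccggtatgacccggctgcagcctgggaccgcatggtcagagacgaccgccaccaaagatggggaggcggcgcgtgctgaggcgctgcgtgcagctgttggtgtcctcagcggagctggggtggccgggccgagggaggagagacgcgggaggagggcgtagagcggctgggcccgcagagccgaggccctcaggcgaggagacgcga
The Cnr1 window held 5 such matches and 40 CpG dinucleotides, and the Napepld window held 0 matches and 28 CpG dinucleotides. The other 2 annotated Cnr1 windows held 0 matches each, with 33 and 5 CpG dinucleotides. Of 32851 mouse windows of this length, 35.7% held GGGCGG on either strand, and the median CpG count was 7. Neither window held TATAAA on either strand, a motif present in 13.6% of all windows. RefSeq windows were given for 5 of the 6 genes, Dagla being the one without. No binding or methylation was measured, so the matches are a description of the sequence alone.

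All 6 genes differed among the 52 regions by the F test of a linear model across all genes (limma, Benjamini-Hochberg adjusted p under 0.05 and a range of region means of at least 1), as did 60.3% of all genes. On the chosen probe sets Cnr1 had the widest range of the 6, at 7.69 between the highest and lowest region mean, and 0.0879% of genes had a wider one. The lower end was set by pineal gland, at 4.81, near the lowest values of the table, and the second Cnr1 probe set spanned 3.13. Mgll spanned 3.69, Dagla 3.15, Faah 3.07 and Napepld 3.06. Daglb spanned 1.74 and stayed near the median of all values, with 23 of its 52 region means below 7.39. The pooled SD between the 2 arrays of a region was 0.25 for Cnr1, 0.18 for Mgll, 0.14 for Faah, 0.14 for Daglb, 0.13 for Dagla and 0.12 for Napepld. Among neighbours in the order of region means, the arrays of the 2 regions overlapped in 40 of 51 pairs for Cnr1, 41 for Dagla, 45 for Mgll, 45 for Napepld, 48 for Faah and 48 for Daglb, so most adjacent ranks could not be told apart. Levels of different genes are not set against each other, since probe sets differ in brightness.

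**Figure D1:**
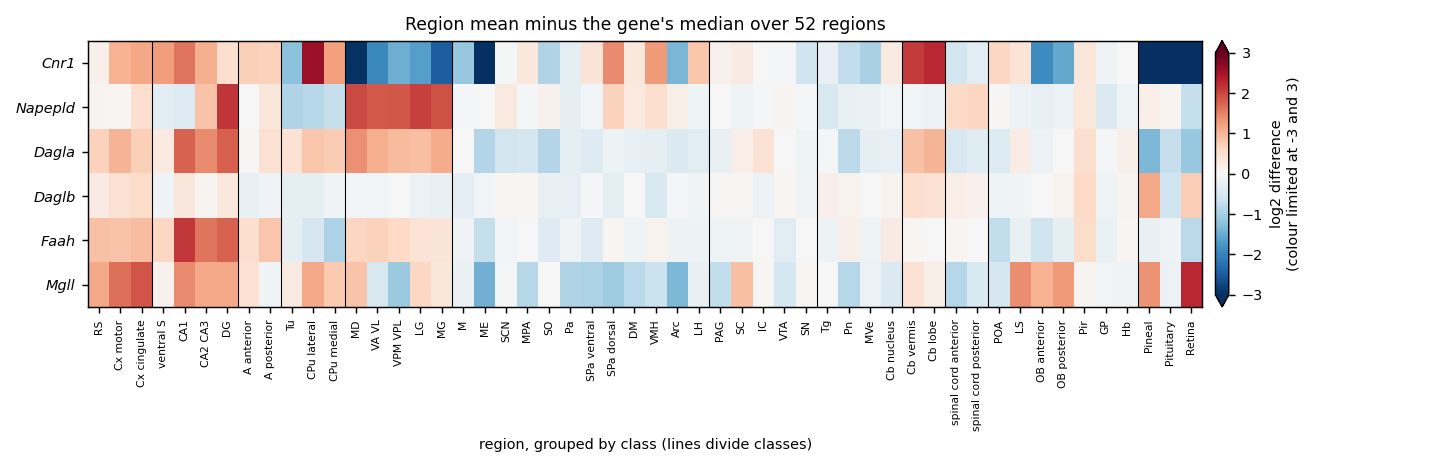
Each cell is a region mean of 2 arrays minus that gene's median over the 52 regions (colour, log2 difference, limited at -3 and 3); rows are the 6 genes and columns the regions, grouped by class. Cnr1 is below its median in all 5 thalamic columns where Napepld is above its own, and Faah and Dagla are both above their medians in CA1, CA2/CA3 and the dentate gyrus.

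Arrays of the same region correlated at 0.972 to 0.998. Hybridisation control probe sets, which report spiked-in transcripts and not tissue, were dimmer on the arrays of 21 regions, called the low set here, than on those of 30, called the high set, and the rows of these controls on the POA/BF arrays were not usable because they did not line up with those of the other arrays. Isocortex, striatum, amygdala, thalamus and spinal cord lay wholly in the high set and cerebellar cortex in the low set. The labelled anatomy was checked with defining genes, and 9 of the 11 measured were highest in the labelled region. Pmch, the melanin-concentrating hormone gene, was highest in the dorsomedial nucleus (13.98) and not in the region labelled lateral hypothalamus (7.70), and Nr5a1, which marks the ventromedial nucleus, reached 9.23 in the dorsal subparaventricular zone against 8.50 in the labelled ventromedial nucleus. The retina arrays held the growth hormone transcript Gh at 14.69, against 14.70 in pituitary and a median of 7.51 in the other 50 regions.

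Between sets of regions, a gene was called when its difference had an adjusted p under 0.05 (limma, Benjamini-Hochberg over all genes) and was at least 2-fold. Over 20 such comparisons, 24 of 120 member values were called, of which 10 were of Cnr1, 5 of Mgll, 4 of Dagla, 3 of Napepld, 1 of Faah and 1 of Daglb. Over all genes, those dim in every region included, 4.6% of 363860 values were called. The members and comparisons were chosen with earlier results of these data known, so these shares do not test the gene set. The comparisons share arrays and are not independent of each other. Their p-values weigh a difference by how far the 2 arrays of each region lie apart, and take no account of how far the regions of a class lie apart. A bulk punch mixes cell types, so fewer cells of a type and less mRNA per cell cannot be told apart.

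Cnr1, the CB1 receptor gene, was highest in the lateral caudate putamen, at 12.53 and 12.48. It stood at 12.09 and 12.26 in the cerebellar lobe and at 12.09 and 11.95 in the cerebellar vermis. These 3 regions lay above all others, the next being CA1 at 11.54 and 11.53. The dorsal subparaventricular zone followed at 11.39 and 11.30, the ventromedial hypothalamic nucleus at 11.30 and 11.12, the ventral subiculum at 11.02 and 11.33 and the medial caudate putamen at 11.27 and 11.04. The second Cnr1 probe set was related to the chosen one (r = 0.76 over 52 regions) over its narrower range, with the cerebellar lobe highest and pineal gland lowest. At the other end within the brain, on the chosen probe set, were the ventral anterior and ventrolateral thalamic nuclei at 8.31 and 7.66, the medial geniculate at 6.93 and 7.95, the mediodorsal thalamic nucleus at 7.03 and 6.89 and the median eminence at 6.40 and 6.60. Below every brain and spinal cord array came retina at 5.79 and 5.51, pituitary at 5.23 and 5.14 and pineal gland at 4.69 and 4.93. The 2 arrays of a region disagreed most in the medial geniculate, the mammillary body (9.31 and 8.26) and the inferior colliculus (10.32 and 9.57).

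**Figure D2:**
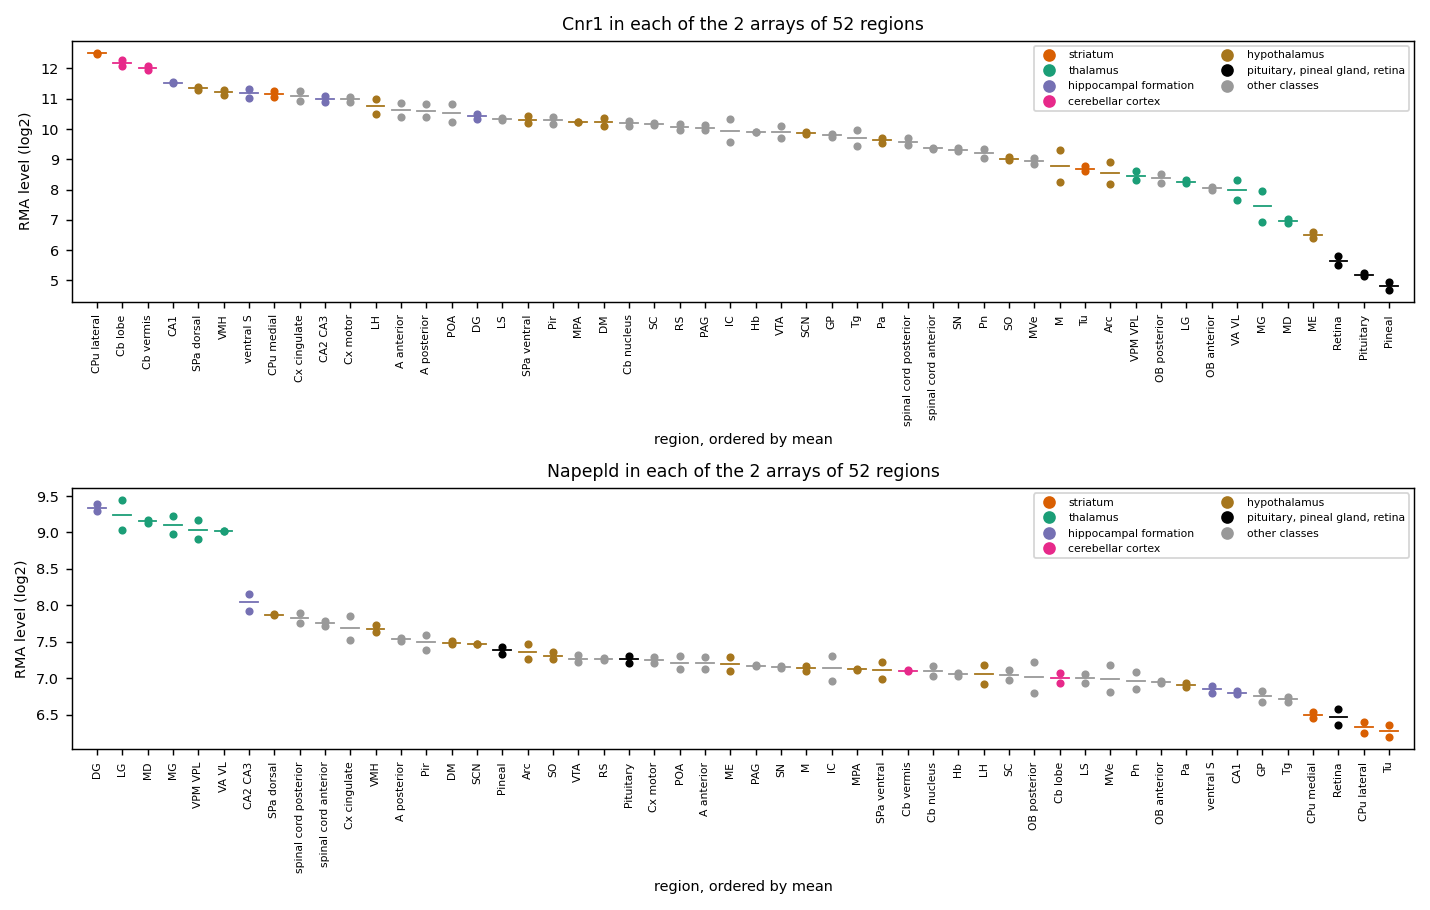
Points are the RMA log2 levels of Cnr1 (top) and Napepld (bottom) on the 2 arrays of each of 52 regions, ordered by region mean (bar) and coloured by class. The 5 thalamic regions stand at 6.96 to 8.46 for Cnr1, near the low end, and at 9.02 to 9.24 for Napepld, where only the dentate gyrus is higher.

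In the cerebellar cortex Cnr1 was 5.03-fold higher than in the other brain and spinal cord regions. Its 4 arrays ran between 11.95 and 12.26 with a median of 12.09, against 6.40 to 12.53 with a median of 9.98 in the other 94. Only the lateral caudate putamen lay above the cerebellar arrays. The difference was 2.33 ± 0.12 (SE) with an adjusted p of 1.10e-25, and 5.51% of all genes were called in this comparison. Cnr1 was the only member called there. Markers of granule cells (3 of 3 measured) and of Purkinje cells (3 of 3) were called higher in the same arrays, and their part in the result was not tested. Within the low set of hybridisation controls the difference was 2.25. With the region means as the samples, the adjusted p for Cnr1 was 0.0659.

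Across the caudate putamen Cnr1 was 2.54-fold higher laterally than medially. The lateral arrays had 12.53 and 12.48 and the medial arrays 11.27 and 11.04, with no overlap, a difference of 1.35 ± 0.24 and an adjusted p of 7.06e-05. Calls were rare in this comparison, at 0.302% of genes, and no other member was called. None of the 4 measured markers of striatal projection neurons was called between the lateral and the medial arrays. Cnr1's second probe set, 1419425_at, gave 1.47 for the same difference. In the olfactory tubercle, a ventral striatal region, Cnr1 stood at 8.62 and 8.77. Taken with the caudate putamen as striatum, the class difference for Cnr1 was 0.98 ± 0.10, short of 2-fold, and it reached 1.01 without the first tubercle array and 1.02 without the second medial caudate putamen array.

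The globus pallidus, which receives axons of striatal projection neurons, had 4.11-fold less Cnr1 transcript than the caudate putamen. It held 9.74 and 9.83 on its 2 arrays, against 11.04 to 12.53 on the 4 caudate putamen arrays. The difference was -2.04 ± 0.21 (adjusted p = 1.56e-12), and 3.92% of genes were called. Mgll, encoding the lipase that clears 2-arachidonoylglycerol, was lower as well, at 9.98 and 10.06 against 10.58 to 11.36, a difference of -1.04 ± 0.15 (adjusted p = 9.24e-08). Dagla differed by -0.86 ± 0.11 and was not called. Mean levels of the 5 oligodendrocyte markers stood at 12.33 in the globus pallidus against 11.08 to 11.40 in the caudate putamen, and those of the 4 projection neuron markers at 10.85 against 12.24 to 12.30. The part of these mixtures in the result was not tested. The Mgll call was lost without the first globus pallidus array (-0.998), the first lateral caudate putamen array (-0.98) or the first medial one (-0.89). It was also lost with the mean of the Mgll probe sets (-0.69), with probe set 1450391_a_at (-0.47) and with the dimmest, 1431331_at (-0.10). Probe set 1453836_a_at gave -1.17.

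In the hippocampal formation 3 of the 6 members were called higher than in the other brain and spinal cord regions, against 2.65% of all genes called in either direction. In the same arrays 3 of 3 measured excitatory cortical neuron markers and 2 of 3 choroid plexus markers were called higher, and their part in the calls of Cnr1, Dagla and Faah was not tested. Cnr1 had 10.33, 11.06 and 11.54 as its lowest, median and highest of 8 arrays, against 6.40, 9.94 and 12.53 in the other 90. The hippocampal arrays lay within the range of the others, and the difference was 1.27 ± 0.09 (adjusted p = 5.92e-20). It was not above the threshold with region means as the samples (adjusted p = 0.275) nor 2-fold with the second probe set (0.57), with the mean of both probe sets (0.92) or within the high set of hybridisation controls (0.74), where the dentate gyrus is the only hippocampal region. Within the formation CA1 was highest and the dentate gyrus lowest, at 10.51 and 10.33. The dentate gyrus differed from the CA fields by -0.85 ± 0.21 for Cnr1 and was not called.

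In the ventromedial hypothalamic nucleus Cnr1 was 3.13-fold higher than in the other hypothalamic regions. Its 2 arrays had 11.30 and 11.12, and the other 22 had 6.40, 9.87 and 11.39 as lowest, median and highest. The highest of those 22 belonged to the dorsal subparaventricular zone, where Nr5a1 also exceeded its level in the labelled ventromedial nucleus. The difference was 1.64 ± 0.18 (adjusted p = 3.99e-11), with 1.13% of genes called and no other member among them. The second probe set gave 0.84, short of 2-fold. Called lower there were 3 of 3 GABA neuron markers, 4 of 6 meningeal and fibroblast markers, 3 of 5 oligodendrocyte markers and 2 of 3 ependymal markers, and their part in the result was not tested.

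In the thalamus, Cnr1 was 4.83-fold lower than in the other brain and spinal cord regions and Napepld, whose enzyme releases N-acylethanolamines, was 3.72-fold higher. For Cnr1 the 10 thalamic arrays had 6.89, 8.08 and 8.61 as lowest, median and highest, against 6.40, 10.18 and 12.53 in the other 88. The difference was -2.27 ± 0.08 (adjusted p = 1.50e-34), and 2.41% of all genes were called in the thalamus. With the region means as the samples it stayed called (adjusted p = 0.00292), while the second Cnr1 probe set gave -0.64. Within the high set of hybridisation controls, which holds all 5 thalamic regions, the differences were -2.25 for Cnr1 and 1.88 for Napepld. Markers of oligodendrocytes were called higher there, 3 of 5 measured, and their part in the result was not tested.

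Napepld ran between 8.91 and 9.45 on the 10 thalamic arrays, with a median of 9.08, against 6.19 to 9.38 with a median of 7.16 on the other 88. The one region among those 88 arrays that reached the thalamic levels was the dentate gyrus, at 9.29 and 9.38. The lowest array of the dentate gyrus and the 5 thalamic regions stood 0.75 above the highest array of the remaining 46 regions, a CA2/CA3 array at 8.16. The thalamic difference was 1.89 ± 0.04 (adjusted p = 1.37e-45), and with the region means as the samples the adjusted p was 8.99e-09. The habenula, which adjoins the thalamus, had 7.07 and 7.03.

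Within the hippocampus Napepld was 3.77-fold higher in the dentate gyrus than in the CA fields. The dentate arrays had 9.29 and 9.38, against 7.93 and 8.16 in CA2/CA3 and 6.82 and 6.78 in CA1. The arrays of CA2/CA3 and CA1 did not overlap each other either, a difference that was not tested. The difference between the dentate gyrus and the CA fields was 1.92 ± 0.11 (adjusted p = 6.29e-23), and 2.33% of genes were called. Hybridisation controls were in the high set for the dentate gyrus and in the low set for both CA fields, so that split and the region cannot be told apart here. Choroid plexus markers, 3 of 3, and 4 of 5 oligodendrocyte markers were lower in the dentate arrays, and their part in the result was not tested.

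Within brain and spinal cord Napepld was lowest in the striatum, where it was 2.16-fold lower than in the other regions. The tubercle had 6.19 and 6.36, the lateral caudate putamen 6.25 and 6.40 and the medial caudate putamen 6.54 and 6.45. All 6 striatal arrays lay below the 92 others of brain and spinal cord, whose lowest was 6.68. Retina, which is outside this comparison, had 6.57 and 6.36 and overlapped the striatal arrays. The difference was -1.11 ± 0.05 (adjusted p = 2.83e-28), against 4.46% of genes called. With the region means as the samples the adjusted p was 0.0756. Within the high set of hybridisation controls, which holds all 3 striatal regions, the difference was -1.31. Napepld was the only member called in the striatum, and 36 of its 52 region means lay below the median of all values.

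Dagla, which encodes the main 2-arachidonoylglycerol synthase of adult brain, was highest in the dentate gyrus at 11.21 and 11.07, CA1 at 11.09 and 11.12 and CA2/CA3 at 10.74 and 10.80. In the hippocampal formation its 8 arrays ran between 9.51 and 11.21 with a median of 10.94, against 8.35 to 10.71 with a median of 9.31 in the other 90. The ventral subiculum, at 9.51 and 9.74, lay well below the other hippocampal regions. The class difference was 1.19 ± 0.05 (adjusted p = 2.78e-32), and with the region means as the samples the adjusted p was 0.0143. The mediodorsal thalamic nucleus followed at 10.69 and 10.71, and the thalamic difference of 0.95 ± 0.04 was just short of 2-fold. Dagla was lowest in pineal gland (7.85 and 8.13), retina (8.13 and 8.30) and the supraoptic nucleus (8.56 and 8.35).

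Dagla and Cnr1 were both lower in the cerebellar nucleus than in the cerebellar cortex. For Dagla the nucleus had 9.01 and 9.18, against 10.20 to 10.42 on 4 cortical arrays, a difference of -1.20 ± 0.11 (adjusted p = 1.05e-14). For Cnr1 it had 10.10 and 10.27, against 11.95 to 12.26, a difference of -1.91 ± 0.21 (adjusted p = 6.07e-12). Neither gene's arrays overlapped, and 6.62% of genes were called. The nucleus and the cortex were in different sets of hybridisation controls, which cannot be told apart from the regions. Purkinje and granule cell markers, 3 of 3 each, were lower in the nucleus and 3 of 5 oligodendrocyte markers higher, and their part in the result was not tested.

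Daglb, the second diacylglycerol lipase gene, varied least. It was highest in pineal gland, at 8.71 and 8.50, 2.19-fold above brain and spinal cord, whose 98 arrays ran between 6.97 and 8.18 with a median of 7.46. That difference of 1.13 ± 0.10 (adjusted p = 8.00e-16) was the only Daglb call in 20 comparisons, and 15.3% of genes were called there. Retina had 7.84 and 8.57. Among brain regions the piriform cortex (7.93 and 8.18) and cingulate cortex (8.03 and 7.98) were highest, and the ventromedial nucleus (7.03 and 6.97) was lowest, close to the pituitary (7.08 and 6.66).

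Faah, which encodes the hydrolase that degrades anandamide, was highest in the hippocampus. CA1 had 11.60 and 11.54, the dentate gyrus 11.32 and 11.09 and CA2/CA3 10.89 and 11.19, and these 6 arrays lay above all others. The ventral subiculum, at 9.94 and 10.19, did not share that level. Over the hippocampal formation the 8 arrays had 9.94, 11.14 and 11.60 as lowest, median and highest, against 8.36, 9.37 and 10.51 in the other 90. The difference of 1.51 ± 0.05, or 2.84-fold, had an adjusted p of 6.89e-35, and of 1.82e-05 with the region means as the samples. The gene's second probe set, 1434091_at, gave 0.98. Cingulate (10.25 and 10.46), retrosplenial (10.11 and 10.51) and motor cortex (10.38 and 10.18) came next, with an isocortical difference of 0.78 ± 0.06 that was short of 2-fold. The lowest region was the medial caudate putamen at 8.65 and 8.36, and the striatal difference was -0.78 ± 0.06. Between the dentate gyrus and the CA fields Faah differed by -0.10 ± 0.12 and was not called (adjusted p = 0.599).

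Mgll, the gene of monoacylglycerol lipase, had 4 probe sets, of which 2 others followed the chosen one across the 52 regions (r = 0.96 and 0.94) and the dimmest, with a mean of 6.11 and a range of 0.48, did not (r = -0.14). On the chosen probe set Mgll was highest in retina (12.43 and 12.28) and, within the brain, in cingulate cortex (12.39 and 11.56) and motor cortex (12.12 and 11.36). In both cortical regions the 2 arrays lay further apart than the pooled SD of the gene. In isocortex Mgll was 2.98-fold higher than in the other brain and spinal cord regions and was the only member of the 6 called, against 2.21% of genes. Its 6 arrays had 11.10, 11.46 and 12.39 as lowest, median and highest, against 8.59, 10.05 and 11.63 in the other 92. The difference was 1.58 ± 0.07 (adjusted p = 1.93e-27), and 0.0669 was the adjusted p with the region means as the samples. The next brain regions were CA1 at 11.56 and 11.47 and the lateral septal nucleus at 11.63 and 11.36. Excitatory cortical neuron markers were called higher in isocortex, 3 of 3 measured, and so was Plcb1, a phospholipase that feeds diacylglycerol synthesis, by 1.09 ± 0.06.

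In the hypothalamus Mgll was 2.04-fold lower than in the other brain and spinal cord regions and again the only member called, against 1.7% of genes. Its 24 arrays had 8.59, 9.39 and 10.20 as lowest, median and highest, against 8.97, 10.25 and 12.39 in the other 74. The median eminence (8.59 and 8.73) and arcuate nucleus (8.75 and 8.76) were lowest, and the supraoptic (10.20 and 10.02) and suprachiasmatic (10.08 and 9.99) nuclei highest within the hypothalamus. The difference of -1.03 ± 0.04 (adjusted p = 1.32e-31) stood at the edge of 2-fold, at -0.91 within the high set of hybridisation controls and -1.26 within the low set. With the region means as the samples the adjusted p was 0.000819. Dagla differed by -0.84 ± 0.03 in the same comparison and was not called. The ventral posterior thalamic nuclei, at 8.97 and 8.97, lay within the hypothalamic range, while the mediodorsal nucleus had 10.85 and 11.07, and the thalamus as a class differed by -0.03 ± 0.06.

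**Figure D3:**
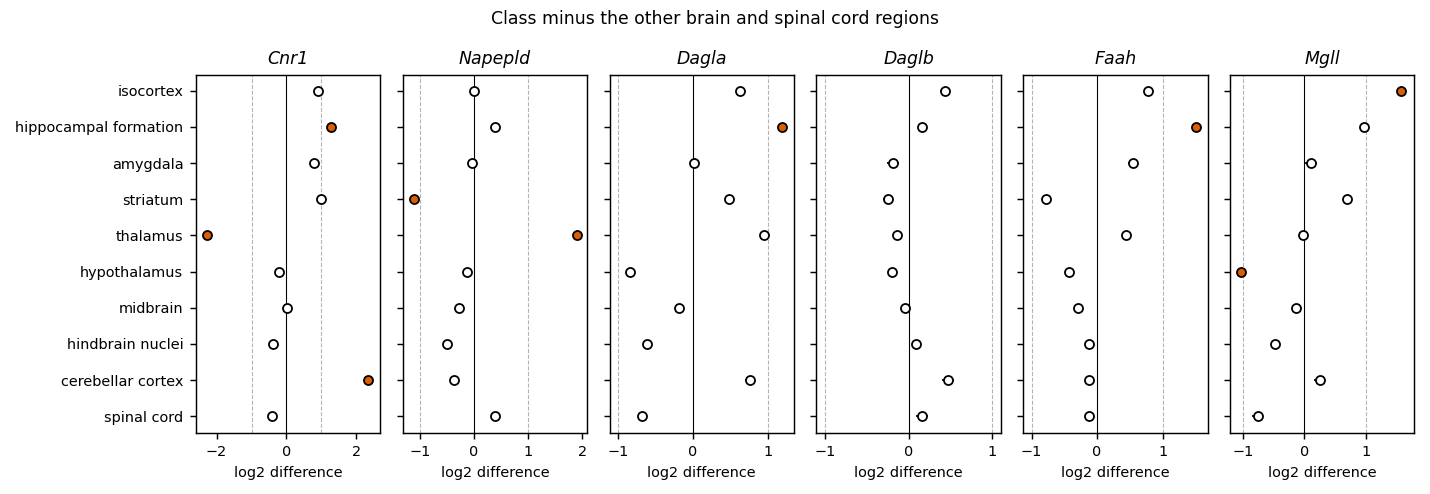
Each point is the log2 difference between a class of regions and the other brain and spinal cord regions for 1 of the 6 genes, with its SE; filled points were called, dashed lines mark 2-fold, most SE bars are hidden by the points and the horizontal scales differ between genes. Filled points stand at -2.27 for Cnr1 and 1.89 for Napepld in the thalamus, at 2.33 for Cnr1 in cerebellar cortex, and at 1.27, 1.19 and 1.51 for Cnr1, Dagla and Faah in the hippocampal formation.

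No member was called in the amygdala, the midbrain, the hindbrain nuclei or the spinal cord, where 2.07%, 0.484%, 1.24% and 2.52% of genes were called. In the amygdala Cnr1 differed by 0.79 ± 0.12 and Faah by 0.54 ± 0.07. In the spinal cord Mgll differed by -0.75 ± 0.09 and Dagla by -0.67 ± 0.06, and Napepld by 0.40 ± 0.06. In the hindbrain nuclei Dagla differed by -0.61 ± 0.05 and Napepld by -0.51 ± 0.05. The largest midbrain difference among the 6 was that of Faah, at -0.29 ± 0.05. No member was called between the posterior and the anterior amygdala either, where 0.808% of genes were, and the Cnr1 difference was -0.03 ± 0.24.

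In POA/BF, the preoptic and basal forebrain punch named in the series title, no member was called against the other 51 regions, where 1.64% of genes were called. Cnr1 had 10.83 and 10.24, against 4.69, 9.94 and 12.53 as lowest, median and highest of the other 102 arrays, a difference of 0.96 ± 0.17. Faah had 8.74 and 8.68, against 8.32, 9.39 and 11.60, a difference of -0.86 ± 0.10. Both were just short of 2-fold, and without the second POA/BF array the Cnr1 difference was 1.25 and called. Only the retina and the medial caudate putamen had a lower Faah mean.

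Outside the brain and spinal cord, Cnr1 was lower in all 3 tissues, with differences of -4.21 ± 0.17 in retina, -4.68 ± 0.17 in pituitary and -5.05 ± 0.17 in pineal gland (adjusted p = 7.31e-32, 8.62e-34 and 8.14e-36). All 6 of these arrays, between 4.69 and 5.79, lay below the lowest of the 98 brain and spinal cord arrays, at 6.40. Calls were common in these tissues, at 21.4% of genes in retina, 13.3% in pituitary and 15.3% in pineal gland. The second Cnr1 probe set gave -0.80, -0.77 and -0.93, each short of 2-fold. Of 6 neuron markers, 6 were called lower in retina, 6 in pituitary and 3 in pineal gland, and all 3 GABA neuron markers were lower in each of these tissues. Their part in the result was not tested. Cnr1 was the only member called in pituitary.

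Retina and pineal gland shared a pattern in Mgll and Dagla, with Mgll higher and Dagla lower than in brain and spinal cord. Daglb, the other 2-arachidonoylglycerol synthesis gene, ran opposite to Dagla. Its differences were 1.13 ± 0.10 in pineal gland, where it was called, and 0.73 ± 0.10 in retina. Mgll had 12.43 and 12.28 in retina and 11.38 and 11.51 in pineal gland, against 8.59, 10.07 and 12.39 as lowest, median and highest of 98 arrays. The differences were 2.19 ± 0.13 in retina (adjusted p = 4.90e-24) and 1.28 ± 0.13 in pineal gland (adjusted p = 7.36e-14). The pineal difference was short of 2-fold with the mean of the Mgll probe sets (0.93) and with probe set 1453836_a_at (0.90), and was 1.52 with probe set 1450391_a_at. Dagla had 8.13 and 8.30 in retina and 7.85 and 8.13 in pineal gland, below all 98 arrays, whose lowest was 8.35. Its differences were -1.35 ± 0.09 and -1.57 ± 0.09 (adjusted p = 2.39e-21 and 2.74e-24). Low Dagla was not limited to these tissues, as pituitary had 8.65 and 8.63, a difference of -0.92 ± 0.09 that was just short of 2-fold. The 3 measured photoreceptor markers had a mean level of 12.11 in retina and 10.54 in pineal gland, against 6.27 to 7.07 in brain and spinal cord regions. The 6 anterior pituitary markers stood at 12.61 in the retina arrays, against 7.04 to 9.65 in brain and spinal cord and 14.20 in pituitary, where Mgll had 9.97 and 9.87. The part of this mixture in the retinal values was not tested. In retina, Faah (-0.96 ± 0.10), Napepld (-0.94 ± 0.09) and Daglb (0.73 ± 0.10) were short of 2-fold. Without the first retina array Napepld (-1.05) and Daglb (1.10) were called, making 5 members, and without the second Faah was (-1.27). Meningeal and fibroblast markers were called higher in both tissues, 5 of 6 in retina and 6 of 6 in pineal gland.

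**Figure D4:**
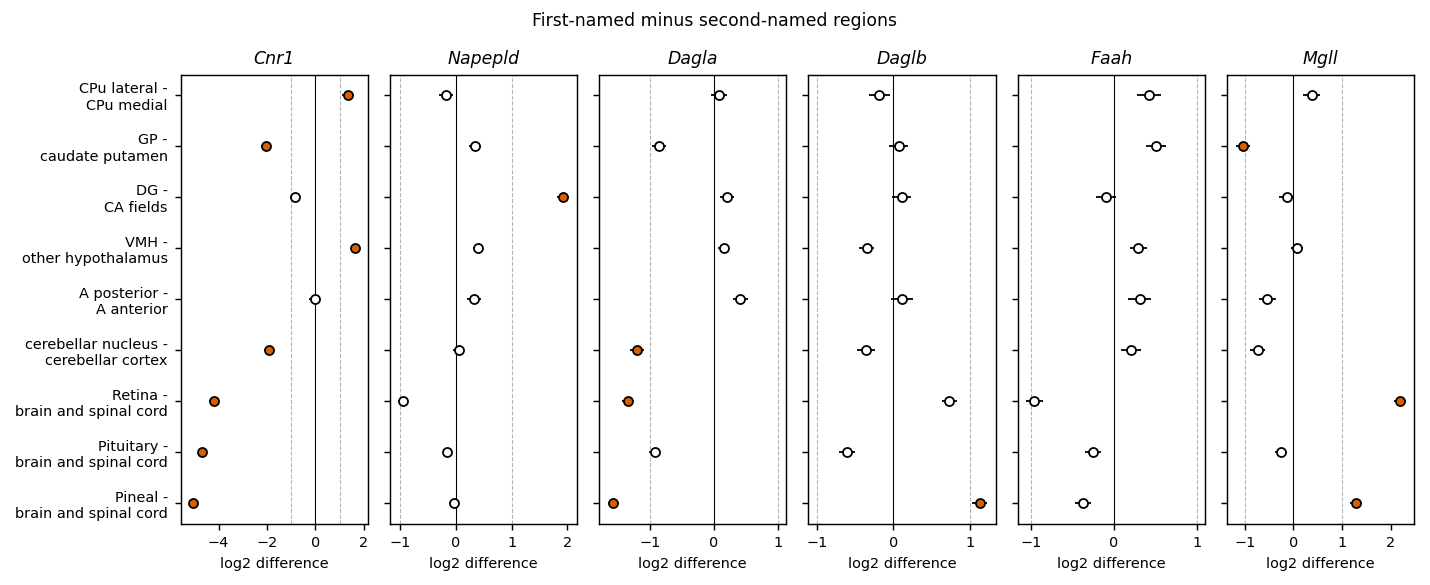
Each point is the log2 difference between the first-named and the second-named regions for 1 of the 6 genes, with its SE; filled points were called, dashed lines mark 2-fold, and the horizontal scales differ between genes. Cnr1 has filled points on both sides of 0, from 1.64 in the ventromedial nucleus to -5.05 in pineal gland, while Napepld has its only filled point at 1.92 in the dentate gyrus.

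The regional patterns of the members were set against each other over the 49 brain and spinal cord region means, which share arrays and RNA extracts and are given as a description. Of 15 pairs, Faah and Dagla were most alike (Pearson r = 0.69, Spearman rho = 0.56), followed by Mgll and Dagla (r = 0.64, rho = 0.67). Napepld and Faah, which make and degrade anandamide, had r = 0.48. Cnr1 was weakly related to all 5 enzymes, with r between -0.39 for Napepld and 0.27 for Daglb. The correlation of Faah with the mean of 3 excitatory cortical neuron markers was 0.78. That of Daglb was 0.62, of Mgll 0.62, of Dagla 0.59, of Cnr1 0.28 and of Napepld 0.14. Cnr1 reached no more than 0.38 with any of 17 marker lists, for cerebellar granule cells.

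**Figure D5:**
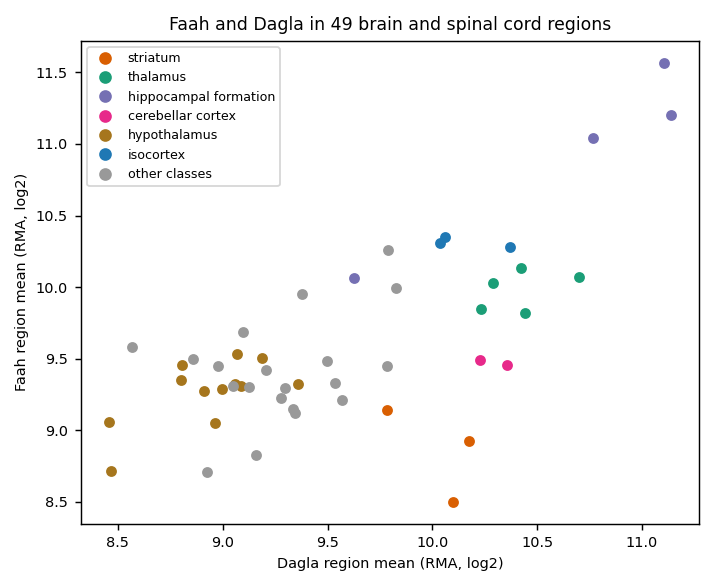
Each point is 1 of 49 brain and spinal cord regions, placed by its Dagla mean (horizontal) and Faah mean (vertical) on the RMA log2 scale and coloured by class. The correlation is r = 0.69; CA1, CA2/CA3 and the dentate gyrus lie at the top right, at Faah means of 11.57, 11.04 and 11.20.

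Among 7885 genes with enough range and signal, those most like each member over the same 49 regions were listed by Pearson r. For Napepld they were Bok (r = 0.84), Prox1 (0.79), Rasl11a (0.78), Capn3 (0.78) and Ptpn3 (0.78). Prox1, a homeobox factor of dentate granule cells, was highest in the dentate gyrus, as Napepld was. For Dagla they were Shank3 (0.86), Dhx33 (0.85), Ogfrl1 (0.84), Brinp1 (0.84) and Grin2a (0.84). Shank3 encodes a scaffold of excitatory postsynaptic densities and Grin2a an NMDA receptor subunit. For Faah they were Ifngr2 (0.86), Apba2 (0.82), Slc2a6 (0.81), Rtn4r (0.80) and Mindy3 (0.80), and for Mgll Hivep2 (0.84), Purb (0.80), Pik3r2 (0.80), Mcrs1 (0.79) and Med13l (0.77). Cnr1 had no gene above Wscd2 (0.75), which was followed by Neurl1a (0.72), Phyhip (0.72), Lingo3 (0.70) and Ntrk3 (0.69). Daglb's list was Ndrg3 (0.73), Lrrc57 (0.73), Nuak1 (0.71), Cop1 (0.70) and Sh3bp5 (0.69).

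Of 31 other genes of the endocannabinoid pathway, 28 were measured. Among them 22 passed the F test with a range of at least 1, as did 60.3% of all genes. Gdpd3, Plaat5, Cnr2, Gpr18, Trpv1 and Ppara did not. Cnr2, the gene of the second cannabinoid receptor, stayed below the median of all values in every region, with a highest mean of 5.71 in retina, and Trpv1, a channel gated by anandamide, peaked at 5.88. In the 20 comparisons 49 of 560 values of these genes were called, or 8.75%, against 4.6% of the values of all genes. This list too was chosen with earlier results known, so the shares do not test it.

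Of the 4 measured partners of 2-arachidonoylglycerol synthesis, Grm5 had the widest range of region means, at 6.99, followed by Plcb4 (4.32), Plcb1 (4.14) and Plcb3 (1.42). Grm5, the metabotropic glutamate receptor that drives phospholipase C, was higher in the striatum by 1.95 ± 0.09, in the hippocampal formation by 1.39 ± 0.08 and in the amygdala by 1.25 ± 0.10, and lower in cerebellar cortex, with a difference of -3.25 ± 0.10. Plcb1 was higher in the striatum (1.49 ± 0.06), isocortex and the hippocampal formation (1.04 ± 0.05). Plcb4 ran the other way, higher in the thalamus (1.92 ± 0.07) and cerebellar cortex (1.80 ± 0.10) and lower in the striatum (-2.33 ± 0.08), the hippocampal formation (-2.00 ± 0.07) and the amygdala (-1.81 ± 0.10). In the thalamus it was the only one of the 28 called, in the class where Dagla stood just short of 2-fold.

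Among the breakdown enzymes, Ptgs2, the cyclooxygenase that oxidises 2-arachidonoylglycerol, was higher in the hippocampal formation by 1.52 ± 0.05, with 8.87 in CA2/CA3. Abhd6 and Abhd12, the other 2-arachidonoylglycerol hydrolases, both had their highest mean in CA1, at 10.53 and 12.31, and were called in none of the 20 comparisons. Among the synthesis enzymes Abhd4, which acts in a route to anandamide that bypasses Napepld, was higher in the globus pallidus than in the caudate putamen by 1.03 ± 0.09 and in the cerebellar nucleus than in the cerebellar cortex by 1.08 ± 0.09. Pla2g4e, an N-acyltransferase that makes the substrate of Napepld, was higher in cerebellar cortex by 1.04 ± 0.05, where Napepld differed by -0.37 ± 0.06. Cnrip1, encoding a protein that binds the tail of CB1, was lower in the striatum, with a difference of -1.06 ± 0.04 and its lowest mean, 8.85, in the lateral caudate putamen, where Cnr1 was highest. Of the lipid carriers, Fabp7 was highest in the anterior olfactory bulb (13.30) and lower in isocortex, with a difference of -1.05 ± 0.10, and Fabp5 was lower in cerebellar cortex, with a difference of -1.14 ± 0.08.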

How the data were processed

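RNA from 52 mouse brain regions and glands was hybridised to Affymetrix arrays. The deposited values are log2 signals per probe set made by the authors with RMA, per the submitters' processing notes (version not stated), and no raw signal files were used. Of 45101 probe sets, 34945 have 1 symbol in the platform annotation, 932 several and 9160 none; 64 are controls. Regions were taken from the sample titles and gathered into anatomical classes. A linear model with 52 region means was fitted with limma 3.58.1 in R 4.3.3 to 18193 genes over all arrays (52 residual degrees of freedom), and contrasts of region means were tested with eBayes and Benjamini-Hochberg adjustment over all genes. Named genes were the 6 members, for each the 5 with the highest r, and the pathway list. The members, lists and comparisons were chosen with earlier results of these data known. Tests were tried on simulated data with independent noise around 1 mean per gene and no regional difference but a shift planted in the thalamus. Of 100 genes shifted by 1.5 all 100 were called, of 100 shifted by 0.5, which is under 2-fold, 0 were, and no other gene was. These shifts lay far from the threshold beside the median SE of 0.04 in that contrast. The simulation therefore checks the code and does not measure false calls in the real arrays. For each pair of regions, the deviations of replicate 1 from the region mean were correlated over genes. The median r was 0 over 1326 region pairs, between -0.503 and 0.524, with 24.7% over 0.1 and 24.7% under -0.1. Numbers given at random within a region would also put the median at 0, so it cannot exclude batches shared between regions. No block entered the main model. The number of arrays limits the precision. Some genes of the marker and pathway lists were not analysed here.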

Additional observations from a re-analysis of the deposited data

How the results depend on the processing

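Settings were changed singly: quantile normalization, arrays centred on their medians, array weights, an intensity trend and a filter on dim genes. Others were averaged probe sets, each other probe set, no fold threshold, region means as the samples and either set of hybridisation controls. Each array of a first-named region was also left out in turn (94 fits). Such a fit was read for comparisons with that region on the first side, or on a second side of 1 or 2 regions. Arrays of the lateral septal nucleus, piriform cortex, olfactory bulb and habenula were never left out. The count of members passing the F test was 6 throughout. Of the 24 called member values, 10 stayed called under all settings run, and 22 kept their direction. The 2 that turned were Mgll in the hypothalamus (0.0077) and in retina (-0.20), both on the dimmest Mgll probe set. Not every value met every setting. Region means were run for the class comparisons alone, and the control sets for those and the ventromedial nucleus. Dagla, Daglb and Napepld had only 1 probe set each. Without the fold threshold all 6 members passed in the hippocampal formation, striatum, hypothalamus and retina, 5 in isocortex, thalamus, hindbrain nuclei, cerebellar cortex and globus pallidus, 4 in spinal cord, ventromedial nucleus, cerebellar nucleus, pituitary and POA/BF, 3 in amygdala and midbrain, and 2 in the lateral caudate putamen, dentate gyrus and posterior amygdala. By the same rule 8.42% (posterior amygdala) to 73% (retina) of all genes passed, with 49.6% in the hippocampal formation, 51.9% in striatum, 62.5% in the hypothalamus and 64.3% in cerebellar cortex. The shares were 44.2% in isocortex, 52% in thalamus, 49.2% in hindbrain nuclei, 30.3% in globus pallidus and 43.1% in spinal cord. They were 24.5% in ventromedial nucleus, 45.8% in cerebellar nucleus, 56.4% in pituitary and 27.6% in POA/BF. Amygdala had 40%, midbrain 30.3%, lateral caudate putamen 10.7% and dentate gyrus 27.8%. With region means as the samples, 0 members were called in isocortex, striatum and cerebellar cortex (limma at 49 region means). Within the high set, 2 were called in isocortex, 2 in striatum and 0 in the hypothalamus. With quantile normalization, 1 was called in the globus pallidus and 1 in POA/BF, and with the mean of probe sets 0 in the hypothalamus and 1 in the globus pallidus. Leaving out single arrays gave counts of 1 to 2 in striatum, 1 to 2 in globus pallidus, 4 to 5 in retina and 0 to 1 in POA/BF. Differences near 0 changed sign. For Faah in the dentate gyrus against the CA fields these were 0.033 (quantile), 0.061 (mean of probe sets) and 0.22 (second probe set), with -0.212 to 0.0135 over single arrays left out. For Cnr1 in the posterior against the anterior amygdala they were 0.037, 0.23 and 0.48, with -0.27 to 0.21. For Mgll in the thalamus they were 0.024 (mean of probe sets), 0.19 and 0.064 (other probe sets). The cause of these changes was not tested. With replicate number as a block the number of called members was the same in every comparison, for example 3 in the hippocampal formation and 2 in the thalamus. Each region has 1 array of each replicate number, so this block could move p-values but not the differences themselves. The 2 arrays of a region give a median SE of 0.12 for a difference between single regions.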

Other observations

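Several regions belong to none of the classes compared. The olfactory bulb held little Cnr1, at 7.99 and 8.09 in its anterior and 8.53 and 8.23 in its posterior part, and much Mgll, at 11.16 and 11.12 and at 11.35 and 11.42, within the range of the isocortical arrays. The lateral septal nucleus had Mgll at 11.63 and 11.36 and also the highest mean of Grm5, at 12.14. In the piriform cortex Faah stood at 9.95 and 10.04, below the lowest isocortical array at 10.11, and Daglb at 7.93 and 8.18, the highest brain mean of that gene. The habenula ranked between 18 and 35 among the 52 regions for the 6 members, and had 9.90 and 9.90 for Cnr1.

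Some regions of the same name or class differed in single members. The median eminence and the ventromedial nucleus, both hypothalamic, stood at 6.40 and 6.60 and at 11.30 and 11.12 for Cnr1. The mediodorsal and ventral posterior thalamic nuclei stood at 10.85 and 11.07 and at 8.97 and 8.97 for Mgll, while their Napepld arrays overlapped. The superior colliculus had 11.14 and 10.86 for Mgll and the periaqueductal gray 9.29 and 9.44. The posterior and anterior spinal cord, by contrast, lay close for Cnr1, at 9.46 and 9.71 and at 9.33 and 9.39. Their means, 9.59 and 9.36, were nearer to each other than the pooled SD of the gene, 0.25. These differences were not tested.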
